A study of Mus musculus with 6 samples.

Results

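The mRNAs of splicing proteins were followed in morula-like aggregates, clusters grown from mouse expanded pluripotent stem cells that model the embryo at the time its cells compact. The members are the rows of the deposited table whose symbol starts with SNRP, SF3A, SF3B, SRSF, HNRNP, PRPF or U2AF, with symbols that carry a pseudogene suffix left out. The rule gave 68 genes of 18388 rows, and 1 row with a pseudogene suffix was left out. Aggregates treated with PFOA (perfluorooctanoic acid, a persistent perfluorinated surfactant) were compared with aggregates given the vehicle DMSO, with 3 RNA-seq libraries in each group. Both groups were cultured in N2B27LCDM medium and then in an induction medium, and their RNA was enriched for poly(A) before sequencing. The sources used here do not give the dose, the exposure time, the stem cell line or how many aggregates made up a library. The cells are a stem cell model of the embryo and not embryos. Levels are FPKM, fragments per kilobase of transcript scaled to the library's mapped fragments, so values can be compared between genes, but the depth behind them is unknown.

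Introns are removed by the spliceosome, which is built on every pre-mRNA from small nuclear ribonucleoproteins (snRNPs) named U1, U2, U4, U5 and U6. A ring of Sm proteins is assembled onto the RNA of most snRNPs, and each snRNP adds proteins of its own, such as U1-C or the SF3B complex of U2. SR proteins and hnRNPs bind the pre-mRNA and help decide which splice sites are used, often in opposite directions. Pluripotent stem cells and early embryos make splicing proteins at high levels, and snRNA that is not loaded with Sm proteins is unstable.

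The members were abundant. Mean levels over the 6 libraries ran from 3.08 FPKM for Srsf12 to 772 FPKM for Snrpg, with a median of 116 FPKM against 12.04 FPKM over the 11876 genes tested, and no member was lost to the filter at a mean of 1 FPKM. Together they took 1.81%, 1.78% and 1.81% of the summed FPKM of PFOA 1, 2 and 3, against 1.77%, 1.78% and 1.80% in DMSO 1, 2 and 3. The groups overlap in this share, although single classes within it differ, as described next.

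No splicing gene passed the test across all genes. In limma on log2(FPKM + 1) with Benjamini-Hochberg adjustment, 0 of 68 members had an adjusted p under 0.05, the smallest being 0.11, beside a background of 0.00842% of the 11876 genes (1 gene). At an unadjusted p under 0.05, 18 members were lower in PFOA, which is 26.5% of them against 12.5% of all genes tested. Another 7 members were higher, which is 10.3% against 8.56% of all genes. Among the 8654 genes with a mean of at least 5 FPKM, 15.4% were lower and 9.85% higher at that p. The split depends on scaling: with quantile normalization 14 members were higher (20.6%, against 11.5% of all genes) and 11 lower (16.2%, against 9.38%) at that p. The median log2 fold change of the members was then 0.046 instead of -0.02, while the median of all genes was 0.010 instead of -0.01. For 20 members (29.4%) every PFOA library lay below every DMSO library, against 13.7% of all genes, and for 10 members (14.7%) every PFOA library lay above, against 13.5%.

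The differences were small beside the range of the members' levels. Over the 68 members 27 log2 fold changes were positive and 41 negative. Over all 11876 genes tested 5651 were positive and 6225 negative. The absolute values of the members had a median of 0.06, against 0.08 over all genes tested. The 95% confidence intervals of the members reached a median of 0.10 to either side, against 0.14 over all genes. At the same p the members could therefore pass with smaller differences than a typical gene. In the plot of fold changes by class, all 8 Sm core genes and all 4 genes of U1- and U2-specific proteins had negative values, as did 8 of 12 SF3A, SF3B and U2AF genes, 7 of 11 SR genes, 11 of 20 hnRNP genes and 3 of 13 PRPF genes.

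**Figure D1:**
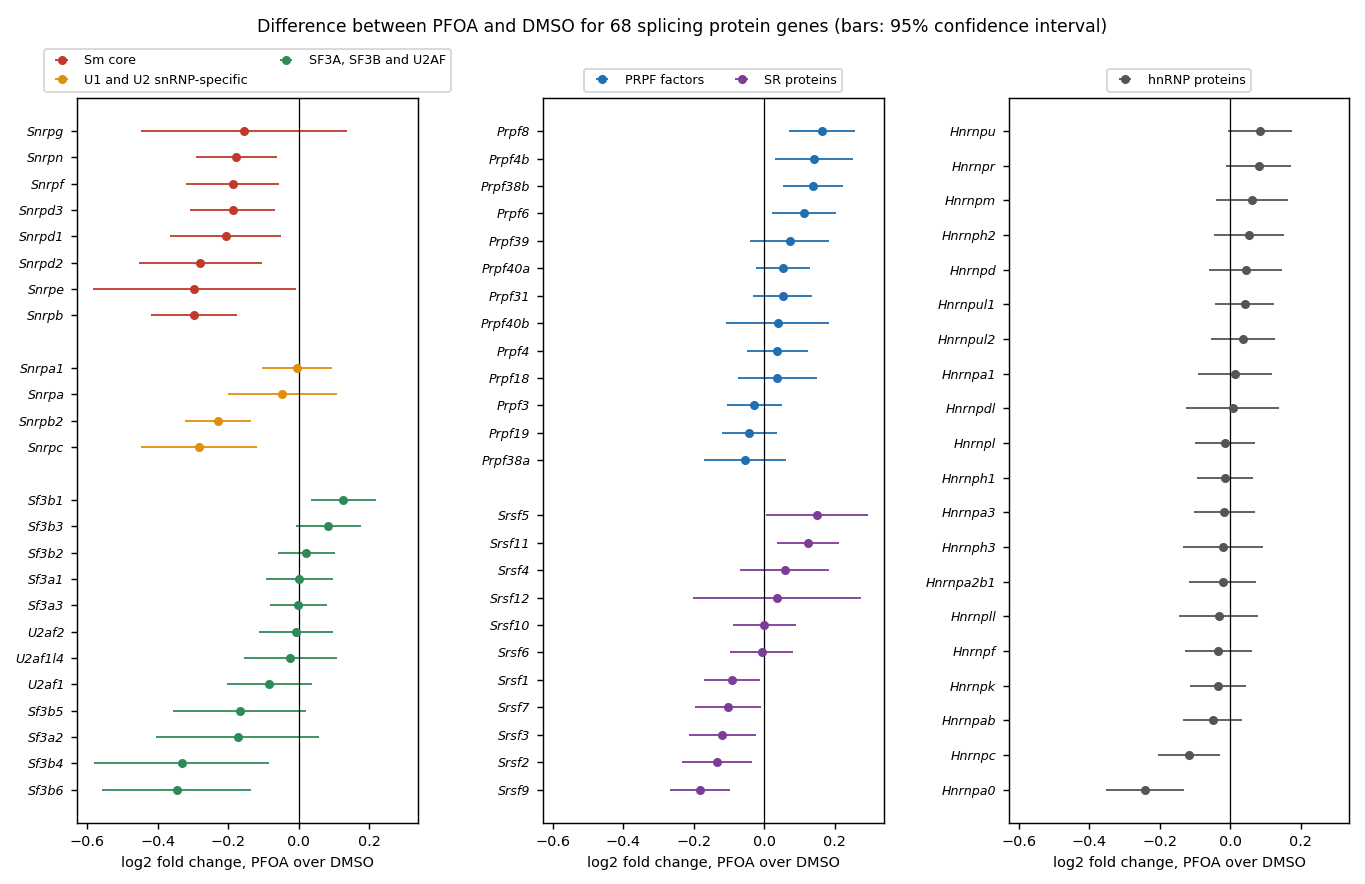
The log2 fold change of PFOA over DMSO (x axis) is drawn for each of the 68 splicing protein genes, with limma's 95% confidence interval as a bar and 1 colour per class. All 8 Sm core genes lie left of 0, 10 of 13 PRPF genes lie right of 0, and 18 of the 20 hnRNP genes have intervals that span 0. Of all 11876 genes tested (not drawn), 6225 had negative values and 2505 had intervals that exclude 0.

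Promoters of a few members are printed first, since the title of the study names the transcription factor c-MYC and members with opposite values can be compared there. RefSeq windows on build GRCm38.p6 (the deposited values were made on GRCm39) run from 250 bases before to 50 after an annotated start and were found for 59 of the 68 members. They are written 5′ to 3′ on the strand of the gene. Capitals mark the letters CACGTG, the E-box that MYC family proteins bind, and CCGGAAG, a core that ETS family proteins bind, searched on both strands (so CTTCCGG is the second read backwards). The window of Snrpb2, which encodes U2-B″ and lay below DMSO in every PFOA library, is at chr2:143062819-143063118 on the plus strand. That of Sf3b6, which had the most negative fold change of the members, is at chr12:4817358-4817657 on the plus strand. Prpf8, the member with the most positive fold change, has its window at chr11:75486527-75486826 on the plus strand. For Snrpa, which encodes U1-A and differed little, the first of the windows is at chr7:27196222-27196521 on the minus strand.
Snrpb2: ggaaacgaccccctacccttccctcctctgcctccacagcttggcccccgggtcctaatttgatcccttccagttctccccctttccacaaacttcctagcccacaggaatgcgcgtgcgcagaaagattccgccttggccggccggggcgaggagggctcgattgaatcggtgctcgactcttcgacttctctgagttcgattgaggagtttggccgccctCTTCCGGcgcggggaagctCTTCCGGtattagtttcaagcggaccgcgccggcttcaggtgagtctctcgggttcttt
Sf3b6: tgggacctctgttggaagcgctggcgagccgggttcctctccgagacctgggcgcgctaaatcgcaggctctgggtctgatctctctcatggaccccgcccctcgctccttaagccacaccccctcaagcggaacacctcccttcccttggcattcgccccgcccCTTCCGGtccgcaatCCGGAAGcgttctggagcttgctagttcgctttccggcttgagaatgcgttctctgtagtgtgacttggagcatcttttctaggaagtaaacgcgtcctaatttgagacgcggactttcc
Prpf8: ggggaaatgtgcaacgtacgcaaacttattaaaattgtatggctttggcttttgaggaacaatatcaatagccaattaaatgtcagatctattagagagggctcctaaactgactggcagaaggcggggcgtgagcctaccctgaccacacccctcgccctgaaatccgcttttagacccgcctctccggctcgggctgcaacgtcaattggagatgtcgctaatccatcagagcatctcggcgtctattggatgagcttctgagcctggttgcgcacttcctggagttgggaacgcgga
Snrpa: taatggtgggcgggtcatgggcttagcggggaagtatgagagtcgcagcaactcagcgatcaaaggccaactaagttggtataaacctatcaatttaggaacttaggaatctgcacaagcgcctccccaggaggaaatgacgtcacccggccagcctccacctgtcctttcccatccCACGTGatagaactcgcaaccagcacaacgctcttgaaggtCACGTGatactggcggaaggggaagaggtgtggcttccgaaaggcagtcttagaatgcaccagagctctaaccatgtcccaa

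The Snrpb2 and Sf3b6 windows each hold 2 ETS cores and no E-box, the Prpf8 window holds neither motif, and the Snrpa window holds 2 E-boxes. Windows that are not printed differ from this contrast. That of Prpf6, with a log2 fold change of 0.11, holds 1 ETS core. The window of Snrpd3, with one of -0.19, holds neither motif. An E-box was present for 9 of the 59 members with a window (15.3%), against 12.1% of the 9561 tested genes with one. These were Hnrnpa3, Hnrnpd, Hnrnpf, Hnrnph2, Hnrnpm, Prpf3, Prpf39, Prpf40b and Snrpa. Their log2 fold changes lay between -0.05 and 0.07 with a median of 0.04, against a median of -0.02 for the 50 members without it. None of the 6 Sm core genes, 11 SR genes or 9 SF3A, SF3B and U2AF genes with a window held the E-box letters there. The ETS core was found for 20 members (33.9%), against 21.1% of tested genes. It was in 6 of 9 SF3A, SF3B and U2AF genes and in 2 of 18 hnRNP genes, and the median log2 fold change was -0.01 with it and -0.02 without. In the printed windows no match overlaps another, although an ETS core on one strand can overlap one on the other. A match says only that these letters are in the window.

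All 8 genes of the Sm core had a negative log2 fold change, and in 6 of them the 2 groups did not overlap. Over all genes tested 6225 of 11876 were negative, and in 13.7% every PFOA library lay below every DMSO library. Short transcripts leaned the same way, as described below. Among other genes 86.3% of those under 1000 nt and 77.7% of those from 1000 nt to under 2500 nt were negative. These genes encode the small proteins that form the ring around the Sm site of U1, U2, U4 and U5 RNA, and Snrpn encodes SmN, a close relative of SmB best known from brain. Snrpb, which encodes SmB, had 182, 196 and 199 FPKM in PFOA 1, 2 and 3, against 248, 240.0 and 222 FPKM in DMSO 1, 2 and 3. Every PFOA library was below every DMSO library, and the means were 192 ± 8.91 and 237 ± 13.6 FPKM (SD, n = 3 each). The log2 fold change was -0.30 ± 0.053 (SE), with an adjusted p of 0.11 in limma with Benjamini-Hochberg adjustment. Without DMSO 3 the log2 fold change was -0.34 and the adjusted p 0.0457, again in limma with Benjamini-Hochberg adjustment. Snrpd2 had 311, 385 and 355 FPKM with PFOA, against 401, 441 and 429 FPKM with DMSO. Snrpd3 had 279, 304 and 322 FPKM with PFOA, against 345, 342 and 343 FPKM with DMSO. In the ring SmD2 pairs with SmD1 and SmD3 pairs with SmB. Both genes were below DMSO in all PFOA libraries, with log2 fold changes of -0.28 ± 0.076 and -0.19 ± 0.053 (SE).

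The other Sm genes had the same sign with more spread between libraries. Snrpd1 (SmD1) had 201, 249 and 225 FPKM with PFOA, against 257, 259.9 and 259 FPKM with DMSO. Snrpf (SmF) had 182, 205 and 205 FPKM with PFOA, against 213, 227 and 234 FPKM with DMSO. Neither gene overlaps between the groups, and PFOA 1 was the lowest library in both. The log2 fold change of Snrpd1 was -0.21, and -0.13 without PFOA 1. Snrpe (SmE) had 269, 407 and 339 FPKM with PFOA, against 406, 432 and 393 FPKM with DMSO. Snrpg (SmG), the most abundant member, had 569.7, 807 and 831 FPKM with PFOA, against 795, 788 and 841 FPKM with DMSO. In these 2 genes the groups overlap. The log2 fold change of Snrpe was -0.30 with all libraries and -0.14 without PFOA 1. For Snrpg PFOA 1 alone lay outside the DMSO range: its log2 fold change was -0.15 ± 0.13 (SE) with all libraries and 0.02 without PFOA 1. Snrpn had 45.8, 48.8 and 46.7 FPKM with PFOA, against 54.3, 56.1 and 49.8 FPKM with DMSO, with no overlap. Snurf, which lies on the same messenger RNA as Snrpn, had 43.6, 47.0 and 44.4 FPKM with PFOA, against 50.8, 53.8 and 47.6 FPKM with DMSO, and reads of these 2 genes may not be separable.

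As a class the Sm genes took 0.348%, 0.413% and 0.405% of the summed FPKM in PFOA 1, 2 and 3, against 0.415%, 0.424% and 0.431% in DMSO 1, 2 and 3. Every PFOA share was below every DMSO share, with PFOA 1 lowest. The median log2 fold change of the class was -0.20, against -0.01 over all genes tested, and it was -0.13 with quantile normalization and -0.19 with median centring, with 8 of 8 negative under both. Of the 8 genes 7, all but Snrpg, were lower at an unadjusted p under 0.05, against 12.5% of all genes tested. PFOA 1 was the lowest of the PFOA libraries in 8 of 8 Sm genes. Without PFOA 1 the class median was -0.14, with 7 of 8 negative.

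**Figure D2:**
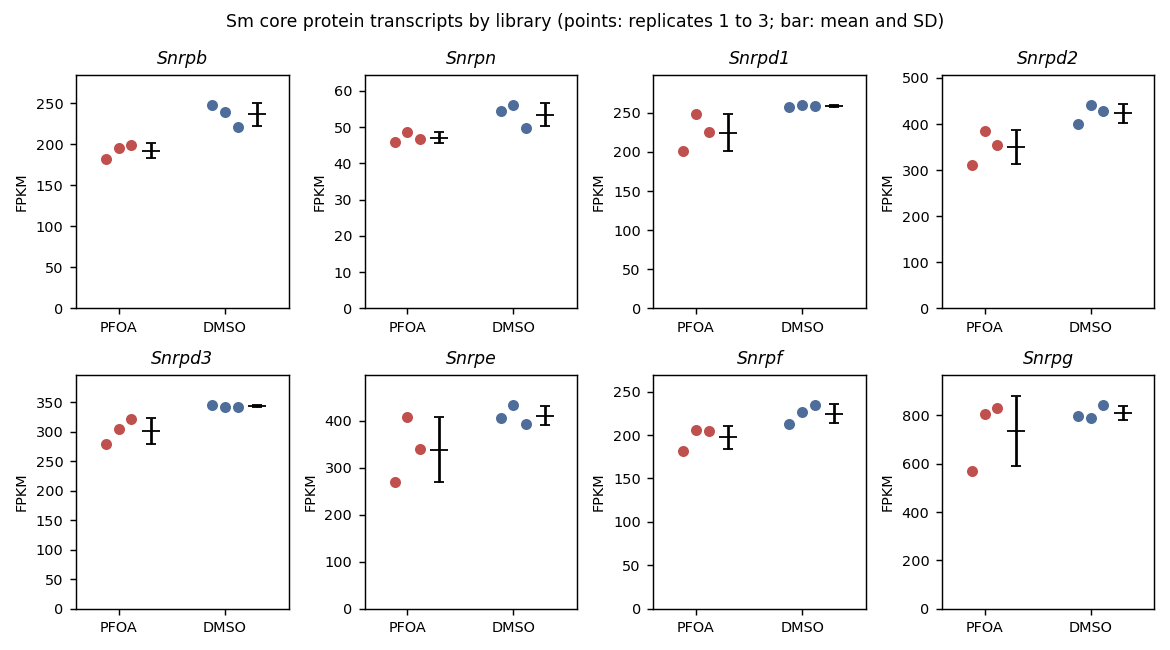
FPKM (y axis, from 0) of the 8 Sm core genes in the PFOA and DMSO libraries, with points for replicates 1 to 3 from left to right and a bar for mean and SD. Groups do not overlap except in Snrpe and Snrpg, and the first PFOA point is the lowest of the 3 in every panel.

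With the deposited values, the proteins that mark U1 and U2 divided into pairs. The first pair had lower PFOA values and the second no difference beyond the spread. Snrpc, which encodes U1-C, a zinc finger protein that helps U1 bind the 5′ splice site, had 198, 234 and 219 FPKM with PFOA, against 276, 274 and 242 FPKM with DMSO. Snrpb2 had 72.1, 73.8 and 76.0 FPKM with PFOA, against 84.4, 90.7 and 85.4 FPKM with DMSO. Both had every PFOA library below every DMSO library, with log2 fold changes of -0.28 ± 0.072 and -0.23 ± 0.041 (SE). Snrpa had 178, 179 and 202 FPKM with PFOA, against 205, 195 and 177 FPKM with DMSO. Snrpa1, whose product U2-A′ pairs with U2-B″ in the U2 snRNP, had 80.05, 83.7 and 78.6 FPKM with PFOA, against 83.6, 82.5 and 77.1 FPKM with DMSO. The groups overlap in both, and the 95% intervals of the log2 fold change were -0.20 to 0.11 for Snrpa and -0.10 to 0.10 for Snrpa1. The difference between Snrpb2 and its partner Snrpa1 was not tested. With the length trend removed the log2 fold change of Snrpa1 was 0.11 ± 0.040 (SE), with an unadjusted p of 0.022 in limma. For Snrpa it was 0.06 ± 0.056 (SE).

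Among the SF3A, SF3B and U2AF genes, which encode the proteins of U2 and its helper that recognise the branch point and the 3′ end of the intron, the class median was -0.02, and 0.02 with quantile normalization. Sf3b6 encodes p14, a small subunit close to the branch point. It had 50.6, 66.9 and 56.3 FPKM with PFOA, against 71.4, 78.8 and 70.5 FPKM with DMSO. The groups do not overlap, the log2 fold change was -0.35 ± 0.092 (SE), and the adjusted p was 0.133 in limma with Benjamini-Hochberg adjustment. Without single libraries the log2 fold change ran from -0.26 without PFOA 1 to -0.45 without PFOA 2, and the adjusted p in limma with Benjamini-Hochberg adjustment was 0.0441 in the last case. Sf3b1, the large scaffold that holds the branch helix, had the opposite sign. It had 86.1, 80.1 and 81.8 FPKM with PFOA, against 74.0, 75.1 and 77.8 FPKM with DMSO. Every PFOA library was above every DMSO library, with a log2 fold change of 0.13 ± 0.040 (SE). Sf3b5, another small subunit, had 166, 213 and 197 FPKM with PFOA, against 215, 207 and 222 FPKM with DMSO. The groups overlap, and the log2 fold change was -0.17, and -0.07 without PFOA 1.

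Sf3b4 and Sf3a2 were set apart by 1 control library. Sf3b4, an RNA-binding subunit near the branch site, had 112, 113 and 114 FPKM with PFOA, against 163, 154 and 116 FPKM with DMSO. Sf3a2, which joins the SF3A trimer to U2, had 101, 97.1 and 109 FPKM with PFOA, against 126, 127 and 96.2 FPKM with DMSO. In both genes DMSO 3 was at the level of the PFOA libraries and DMSO 1 and 2 stood above it, by a mean of 0.45 and 0.39 on the log2 scale. A gap of more than 0.25 between DMSO 3 and the mean of the other controls was seen in 2 of 68 members and in 599 of the 11876 genes. The Sf3b4 log2 fold change was -0.33 with all libraries, -0.48 without DMSO 3 (adjusted p = 0.00379 in limma with Benjamini-Hochberg adjustment) and -0.04 with a term that separates DMSO 1 and 2 from DMSO 3. For Sf3a2 the last value was 0.09, against -0.17 with all libraries. Of the 50-nt words of Sf3b4, 49.3% also occur in transcripts of other genes, above all the pseudogene Gm7935, so its level depends on how shared reads were counted.

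U2af1 recognises the AG at the end of the intron and U2af2 the pyrimidine tract before it. U2af1 had 254, 271 and 292 FPKM with PFOA, against 283, 287 and 294 FPKM with DMSO. U2af2 had 198, 209 and 221 FPKM with PFOA, against 209, 208 and 214 FPKM with DMSO. The groups overlap in both, and the 95% intervals were -0.20 to 0.04 and -0.11 to 0.10. The remaining genes of this class, Sf3a1, Sf3a3, Sf3b2, Sf3b3 and U2af1l4, had log2 fold changes between -0.02 and 0.08.

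The PRPF genes, which encode proteins of the U4/U6.U5 tri-snRNP and of later steps, leaned the other way. Of their log2 fold changes 10 of 13 were positive, against 5651 of 11876 over all genes tested. The class median was 0.05, and 0.08 with quantile normalization. Prpf8, the large U5 protein that cradles the catalytic RNA, had 180.0, 166 and 167 FPKM with PFOA, against 152, 152 and 154 FPKM with DMSO. Every PFOA library was above every DMSO library, and the means were 171 ± 7.78 and 153 ± 1.18 FPKM (SD, n = 3 each). The log2 fold change of 0.16 ± 0.041 (SE) had an adjusted p of 0.128 in limma with Benjamini-Hochberg adjustment. Prpf38b, a relative of the B complex protein Prpf38a, had 59.3, 57.9 and 59.6 FPKM with PFOA, against 53.1, 52.1 and 55.3 FPKM with DMSO. Prpf6, which bridges U5 and U4/U6 in the tri-snRNP, had 69.2, 64.0 and 65.5 FPKM with PFOA, against 62.1, 60.3 and 61.3 FPKM with DMSO. Prpf4b, a kinase of the spliceosome, had 27.0, 24.6 and 24.7 FPKM with PFOA, against 23.3, 22.2 and 23.3 FPKM with DMSO. These genes do not overlap between groups, with log2 fold changes between 0.11 and 0.14. The other PRPF genes, among them the tri-snRNP genes Prpf3, Prpf4 and Prpf31 and the ubiquitin ligase Prpf19, had log2 fold changes between -0.05 and 0.07.

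**Figure D3:**
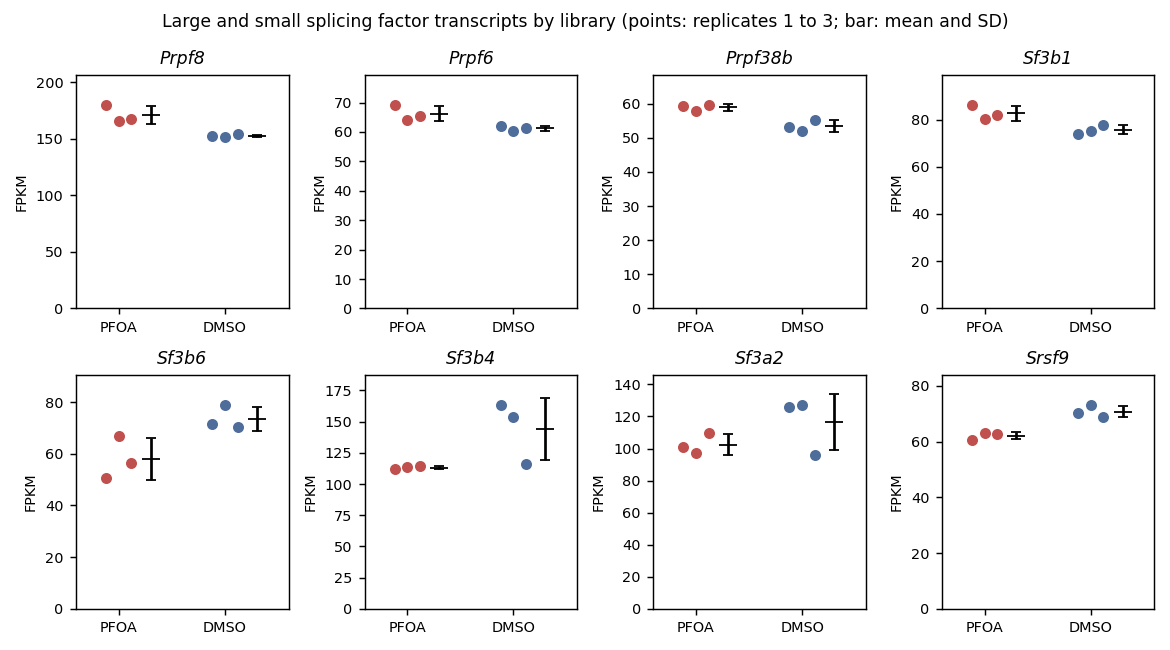
FPKM (y axis, from 0) of 8 splicing factor genes in the PFOA and DMSO libraries, with points for replicates 1 to 3 from left to right and a bar for mean and SD. The upper row holds genes with PFOA above DMSO (Prpf8 at 171 against 153 FPKM on average), and in the lower row Sf3b4 and Sf3a2 have a DMSO 3 point at the PFOA level.

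SR genes had values on both sides of 0, and their class median was -0.01, and 0.04 with quantile normalization. SR proteins carry arginine-serine repeats and bind exons, where they favour inclusion. Srsf9 had 60.6, 63.1 and 62.8 FPKM with PFOA, against 70.3, 73.0 and 68.9 FPKM with DMSO, and the log2 fold change was -0.18 ± 0.038 (SE). Srsf2, also known as SC35, had 318, 327 and 339 FPKM with PFOA, against 372, 361 and 347 FPKM with DMSO. In both genes every PFOA library was below every DMSO library. The same held for Srsf3 and Srsf7, close relatives that shuttle between nucleus and cytoplasm. Srsf3 had 147, 158 and 154 FPKM with PFOA, against 164, 163 and 172 FPKM with DMSO. Srsf7 had 114, 124 and 123 FPKM with PFOA, against 129.97, 129 and 129 FPKM with DMSO. Srsf1, the founding member of the family, had 80.6, 79.5 and 77.1 FPKM with PFOA, against 85.1, 82.9 and 85.1 FPKM with DMSO, again with no overlap. Log2 fold changes of Srsf1, Srsf2, Srsf3 and Srsf7 lay between -0.13 and -0.09.

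Srsf11 and Srsf5 had the opposite sign. Srsf11 had 138, 134 and 141 FPKM with PFOA, against 122, 128 and 129 FPKM with DMSO, and the groups do not overlap. Srsf5 had 257, 254 and 273 FPKM with PFOA, against 217, 232 and 258 FPKM with DMSO. Here DMSO 3 lies within the PFOA range, and the log2 fold change was 0.15 ± 0.063 (SE). It ran from 0.09 without DMSO 1 to 0.22 without DMSO 3 and was 0.02 with the term for DMSO 1 and 2. Srsf4, Srsf6, Srsf10 and Srsf12 had intervals that span 0. Many SR genes regulate themselves through transcripts that are degraded by nonsense-mediated decay, and GENCODE M21 lists such a transcript for 9 of 11 SR genes, 10 of 20 hnRNP genes and 2 of 8 Sm genes. Values per gene do not separate these transcripts from coding ones.

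For 18 of 20 hnRNP genes the 95% interval of the fold change spanned 0. Most intervals did so over all genes tested as well, where 2505 of 11876 excluded 0. At an unadjusted p under 0.05 in limma, 2 hnRNP genes were lower, against 12.5% of all genes, and 0 higher, against 8.56%. hnRNPs coat nascent RNA and include the polypyrimidine and G-run binders that often repress exons. Hnrnpa1, which with Snrpg was among the most abundant members, had 764, 737 and 761 FPKM with PFOA, against 714, 754 and 774 FPKM with DMSO. Hnrnpf had 493, 512 and 531 FPKM with PFOA, against 526, 524 and 523 FPKM with DMSO. Groups overlap in both, with 95% intervals of -0.09 to 0.12 and -0.13 to 0.06. Hnrnpab had 443, 455 and 447 FPKM with PFOA, against 469, 461 and 462 FPKM with DMSO; every PFOA library was lower, and the log2 fold change was -0.05 ± 0.036 (SE). Under quantile normalization the Hnrnpab and Hnrnpf values were 0.08 and 0.11, and the class median was 0.08 instead of -0.02.

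The genes whose intervals did not span 0 were Hnrnpa0 and Hnrnpc. Hnrnpa0, an intronless relative of Hnrnpa1 that binds AU-rich elements, had 73.1, 80.5 and 77.0 FPKM with PFOA, against 95.3, 90.8 and 87.3 FPKM with DMSO. Its log2 fold change of -0.24 ± 0.049 (SE) had an adjusted p of 0.11 in limma with Benjamini-Hochberg adjustment. Hnrnpc, which binds uridine tracts, had 186, 195 and 199.5 FPKM with PFOA, against 208, 211 and 210.2 FPKM with DMSO, a log2 fold change of -0.12 ± 0.038 (SE). Neither gene overlaps between the groups.

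The fold changes of the members followed transcript length, and so did those of all other genes. With the longest coding transcript of GENCODE M21 as the length, 4 of 4 members under 1000 nt were negative, as were 86.3% of 688 other genes of that length. From 1000 nt to under 2500 nt 23 of 26 members were negative, against 77.7% of 3631 other genes. From 2500 nt to under 4000 nt 11 of 23 were negative, against 52.0% of 3355 others. At 4000 nt and over 3 of 15 were negative, against 22.2% of 3794 others, and the medians in that bin were 0.05 for members and 0.07 for other genes. Across members the Spearman correlation of length and log2 fold change was 0.65 (n = 68), and across the other genes it was 0.60 (n = 11468). Genes are not independent replicates and all share the same 6 libraries, so these are descriptions. The Sm core has a median length of 1108 nt and the PRPF genes one of 3522 nt. The longest annotated transcript need not be the one expressed, as for Prpf19 with 6035 nt and Sf3b5 with 3841 nt.

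**Figure D4:**
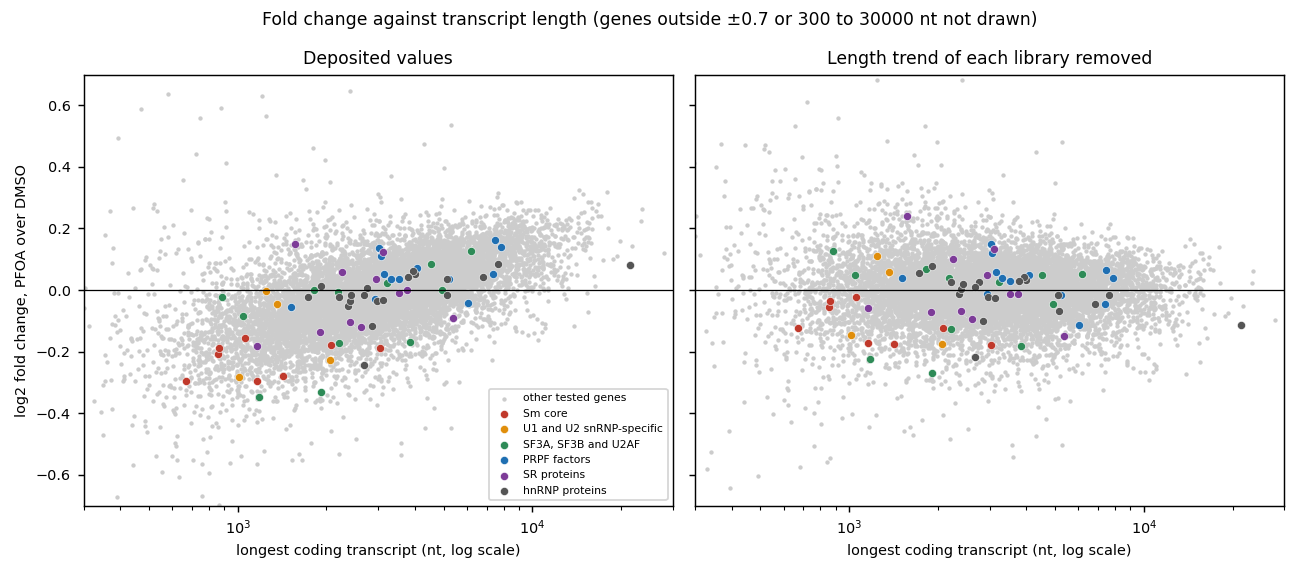
Log2 fold change of PFOA over DMSO (y axis) against the longest coding transcript (x axis, nt, log scale) for the tested genes (grey) and the 68 members (coloured by class), with deposited values on the left and after removal of each library's length trend on the right. On the left members lie in the rising cloud of other genes (Spearman 0.65 for members, 0.60 for others), and on the right the slope is gone while all 8 Sm genes lie under 0.

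With the trend of level on length removed from each library, fitted on genes outside the group, 0 of 68 members had an adjusted p under 0.05 in limma with Benjamini-Hochberg adjustment, as did 0% of all genes. At an unadjusted p under 0.05, 14 members were lower, 20.6% against 7.08% of all genes, and 7 were higher, 10.3% against 6.39%. Of the 18 members that were lower before, 12 were lower here (66.7%), and they make up 85.7% of the 14. Those 12 include Snrpb, Snrpd2, Snrpd3, Snrpn, Snrpc, Snrpb2, Sf3b6, Srsf1 and Hnrnpa0. Snrpd1, Snrpe, Snrpf, Srsf2, Srsf7 and Srsf9 no longer had a p under 0.05. Of the 7 that were higher before, 5 were higher here, namely Prpf8, Prpf6, Prpf38b, Srsf5 and Srsf11, whereas Sf3b1 and Prpf4b were not. Snrpa1 and U2af1l4 were higher only with the trend removed, and Hnrnpa3 and Prpf19 were lower only there.

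The Sm core had a median of -0.12 with the length trend removed, with 8 of 8 negative. Of these 4 were lower at an unadjusted p under 0.05, against 7.08% of all genes. In single libraries its median, relative to the mean of DMSO, was -0.23, -0.05 and -0.11 in PFOA 1, 2 and 3, against -0.02, 0.005 and 0.02 in DMSO 1, 2 and 3. Every PFOA library was below every DMSO library, and PFOA 1 was the farthest. Without PFOA 1 the median was -0.08 and 7 of 8 genes were negative. The log2 fold change of Snrpb was -0.17 ± 0.037 (SE) with the trend removed, against -0.30 before. For Prpf8 it was 0.06 ± 0.027, against 0.16 before. Medians of the other classes were -0.04 for the U1 and U2 proteins, 0.03 for SF3A, SF3B and U2AF, 0.04 for PRPF, -0.01 for SR and -0.004 for hnRNP genes.

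**Figure D5:**
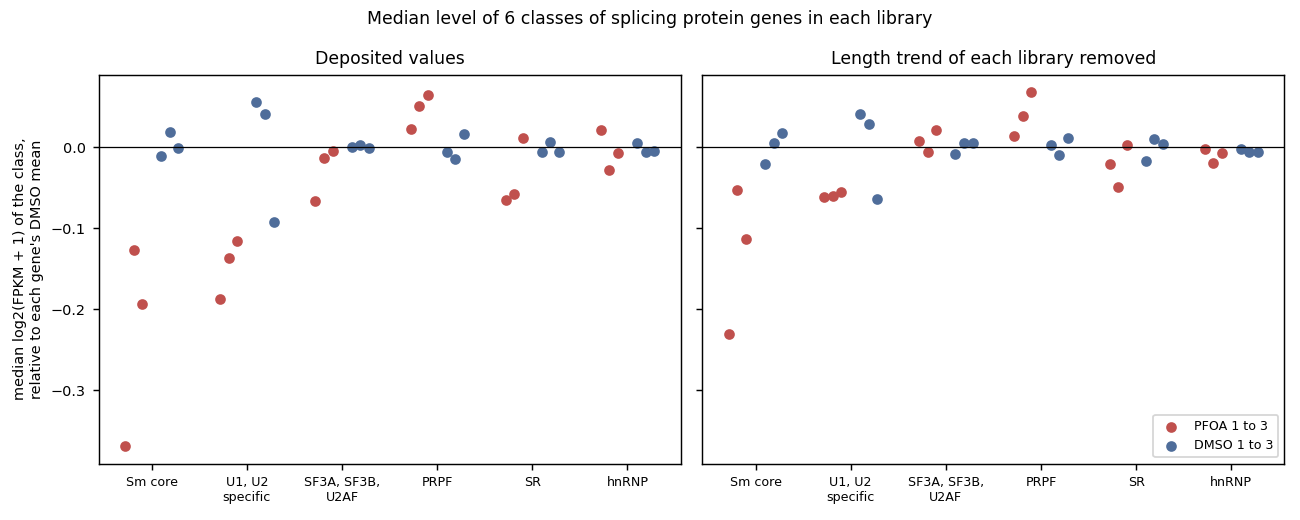
Median log2(FPKM + 1) of each class in each library relative to the gene's DMSO mean (y axis), for the 6 classes (x axis), with deposited values on the left and the length trend of each library removed on the right. Sm core medians of PFOA 1 to 3 are -0.37, -0.13 and -0.19 on the left and -0.23, -0.05 and -0.11 on the right, with DMSO libraries near 0.

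Other genes of splicing were read from 6 lists. Of their 145 genes, all were tested and 0 had an adjusted p under 0.05 in limma with Benjamini-Hochberg adjustment. On the higher side 21 had an unadjusted p under 0.05 (14.5%, against 8.56% of all genes tested) and on the lower side 18 (12.4%, against 12.5%). The median log2 fold change was 0.003, and 0.04 with quantile normalization. These shares of all genes are also the background for the single lists, which hold 13 to 36 genes each. For the counts with the length trend removed, the background is 6.39% higher and 7.08% lower. In the list of SMN complex and Sm assembly genes, which load the Sm ring onto RNA, 2 of 15 were higher (13.3%) and 4 lower (26.7%), and the median was -0.07. Gemin2, which holds Sm proteins before loading, had 17.2, 17.2 and 16.0 FPKM with PFOA, against 19.4, 19.3 and 19.5 FPKM with DMSO. Gemin7 had 36.9, 38.8 and 36.0 FPKM with PFOA, against 41.0, 49.4 and 43.9 FPKM with DMSO. Phax, the export adaptor of snRNA, had 45.2, 44.3 and 43.2 FPKM with PFOA, against 47.8, 48.0 and 48.2 FPKM with DMSO. These 3 genes have the smallest p of the list, and in each every PFOA library lay below every DMSO library. Such a separation was found for 4 of the 15 genes, against 13.7% of all genes tested. For another 3, Gemin4, Gemin5 and Tgs1, every PFOA library lay above, against 13.5%. With the length trend removed 1 gene of the list was higher and 0 were lower at that p, and the list's median was 0.003.

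Among 33 other snRNP proteins 3 were higher (9.09%) and 7 lower (21.2%), with a median of -0.04. With the length trend removed 1 was higher and 4 were lower, and with quantile normalization the median was 0.006. Phf5a, a small SF3B subunit, had 58.7, 61.2 and 58.6 FPKM with PFOA, against 66.1, 67.1 and 65.0 FPKM with DMSO. Pdcd7, a protein of the minor spliceosome, had 18.8, 17.5 and 18.1 FPKM with PFOA, against 20.96, 21.2 and 19.6 FPKM with DMSO. U2surp, a larger U2-associated protein, had 41.4, 39.8 and 39.4 FPKM with PFOA, against 35.2, 36.0 and 36.8 FPKM with DMSO. No group of libraries overlaps in these genes, which have the smallest p of the list, and only U2surp has PFOA on the higher side. Over the list every PFOA library lay below in 8 of 33 genes and above in 3, against 13.7% and 13.5% of all genes. With the length trend removed the log2 fold changes were -0.07 for Phf5a, -0.14 for Pdcd7 and 0.05 for U2surp.

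In the 27 factors of the Prp19 complex and the catalytic steps 1 was higher (3.70%) and 3 lower (11.1%), with a median of -0.01. With the length trend removed 3 were higher and 2 lower and the median was 0.03, and with quantile normalization it was 0.02. The cyclophilin Ppie had 44.5, 52.6 and 49.2 FPKM with PFOA, against 59.1, 59.3 and 57.7 FPKM with DMSO, a log2 fold change of -0.26 ± 0.058 (SE). Without PFOA 2 its adjusted p was 0.0498 in limma with Benjamini-Hochberg adjustment, against 0.118 with all libraries. Syf2 had a log2 fold change of -0.22 ± 0.057 and Cwc22 one of 0.17 ± 0.049 (SE). Among 21 SR-related proteins and kinases 7 were higher (33.3%) and 2 lower (9.52%), with a median of 0.05. With the length trend removed 4 were higher and 1 lower, and the median was 0.02. Srrm2, a very large scaffold of nuclear speckles, had 205, 187 and 185 FPKM with PFOA, against 166, 160.4 and 166 FPKM with DMSO. Son, the other large speckle protein, and Srpk1, the kinase of SR proteins, had log2 fold changes of 0.20 ± 0.047 and 0.15 ± 0.040 (SE). In both every PFOA library lay above every DMSO library, as in 13.5% of all genes tested. With the length trend removed the log2 fold change was 0.11 for Srrm2, against 0.23 before, 0.09 for Son and 0.11 for Srpk1.

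Of 36 other splicing regulators 5 were higher (13.9%) and 0 lower, with a median of 0.04. With the length trend removed 4 were higher and 4 lower, and the median was 0.008. Their smallest p-values were those of Celf2, Taf15 and Celf1, with log2 fold changes of 0.28 ± 0.079, 0.10 ± 0.039 and 0.09 ± 0.036 (SE). For Celf1 the value was -0.01 with the length trend removed. In the 13 genes of the exon junction complex and nonsense-mediated decay 3 were higher (23.1%) and 2 lower (15.4%), with a median of 0.07. With the length trend removed 3 were higher and 1 lower, and the median was 0.03. Magoh, a small core subunit of the exon junction complex, had 137, 173 and 167 FPKM with PFOA, against 217, 231 and 194 FPKM with DMSO. Its log2 fold change of -0.43 ± 0.094 (SE) was the most negative of the 145 genes, and it was -0.26 ± 0.058 with the length trend removed. The decay kinase Smg1, which has a long transcript, had a log2 fold change of 0.22 ± 0.068 (SE), and 0.05 ± 0.038 with the length trend removed.

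Facts of the whole series bear on these values. The libraries had 16823 to 16913 genes above 0, and FPKM summed to 585739 to 630644 in PFOA libraries, against 641975 to 657239 in DMSO libraries, with PFOA 1 lowest. Over the genes tested, the Spearman correlation of DMSO 3 was 0.9968 with PFOA 2, 0.9962 with PFOA 3 and 0.9945 with PFOA 1. With DMSO 1 and DMSO 2 it was 0.9946 and 0.9955. DMSO 3 was thus closer to PFOA 2 and 3 than to the other controls. PFOA 1 was the lowest PFOA library in 33 of 68 members and the highest in 20. Without it 4 members were higher past an unadjusted p of 0.05 (5.88%, against 5.20% of all genes) and 16 lower (23.5%, against 9.16%). Without DMSO 3 the counts were 8 (11.8%, against 7.99%) and 15 (22.1%, against 13.5%). With the term for DMSO 1 and 2 they were 3 (4.41%, against 2.32%) and 8 (11.8%, against 4.57%). All 9 pluripotency markers were at 1 FPKM or more, with summed levels of 3685 to 4146 FPKM with PFOA, against 4270 to 4486 FPKM with DMSO. The markers did not share a direction: in Pou5f1, Nanog and Dppa5a every PFOA library was below every DMSO library, in Esrrb and Tfcp2l1 every one was above, and in Sox2, Zfp42, Klf4 and Tdgf1 the groups overlap. Dppa5a, the most abundant, had 1672, 2125 and 2058 FPKM with PFOA, against 2210.4, 2304 and 2203 FPKM with DMSO. The part of these markers in the splicing values was not tested. Fibroblast markers, from feeder cells that such cultures may hold, reached 1 FPKM in 7 of 10 genes and summed to 21.8 to 23.7 FPKM with PFOA, against 23.6 to 28.8 FPKM with DMSO. Primitive endoderm markers reached it in 2 of 7 genes, with sums of 8.05 to 8.46 FPKM with PFOA and 7.50 to 8.62 FPKM with DMSO, and trophectoderm markers in 6 of 7, with 494.6 to 564 FPKM with PFOA and 510.4 to 583 FPKM with DMSO. No marker was at 0 in all libraries, and in bulk RNA fewer cells of a type cannot be told apart from less RNA per cell.

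Shared sequence limits some members. For 15 of 68 members at least 20% of their 50-nt words also occur in other genes' transcripts, mostly pseudogenes, so their levels are uncertain where the counting could split such reads. These include U2af1l4 with 97.2%, U2af1 with 59.4%, Hnrnpf with 49.0%, Hnrnpa1 with 46.4% and Srsf3 with 31.5%, and among the Sm genes Snrpe, Snrpf and Snrpn with 20.8% to 21.3%. Of these 15, 5 were lower and 1 higher at an unadjusted p under 0.05. Of the 53 others 13 were lower and 6 higher. Over all genes tested 12.5% were lower and 8.56% higher at that p.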

How the data were processed

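RNA-seq was measured in 6 libraries of mouse morula-like aggregates, 3 with PFOA and 3 with DMSO, grouped by the labels' titles. The authors deposited FPKM per gene symbol to 2 decimals. Per the submitters' processing notes, the tools were Bowtie2 2.2.5 and HISAT2 2.0.4 and the build GRCm39. No source used here gives the counting tool or annotation. Because FPKM is relative to transcript length and to the library total, abundant transcripts that differ shift the others. Depth is unknown: of 5994 larger values in 2145 low genes, 30.7% lay within 0.15 of a whole multiple of the smallest value, against 30% by width alone, so reads could not be recovered and count models were not applied.

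Values were analysed as log2(FPKM + 1), a scale that understates changes of low genes, for genes with a mean of at least 1 FPKM (6512 left out). The comparison of PFOA with DMSO used limma 3.58.1 under R 4.3.3, two-sided, letting the prior variance follow the mean level, with Benjamini-Hochberg adjustment over 11876 genes and a threshold of 0.05. Labels do not say whether replicates were separate cultures, so p-values measure the spread between libraries, which may be technical.

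GENCODE M21, on another build, gave transcript lengths, nonsense-mediated decay transcripts and 50-nt words shared between genes, so only RefSeq promoters carry coordinates. The length trend was a lowess (span 0.2) per library, fitted on genes that are not members.

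The members, lists and tests were chosen with earlier results of these data known. Named members are those with an unadjusted p under 0.05 (up to 12 per direction by p), the 3 most abundant of each of the 6 classes, 6 fixed genes (Snrpb, Snrpn, Srsf3, Srsf7, U2af1, U2af2) and the 3 smallest p-values of each list of other splicing genes. One gene that this rule names is not reported here. Snrpd1, Srsf1, Hnrnpc, Sf3a2 and Snurf were added after their values were seen. Of the alternatives, removal of a GC trend and the length trend without PFOA 1 were chosen after seeing the data.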

Additional observations from a re-analysis of the deposited data

How the results depend on the processing

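Over the settings tried, 0 of 68 members were called except without PFOA 2 (Sf3b6) and without DMSO 3 (Sf3b4 and Snrpb), so the count ran from 0 to 2 when single libraries were left out. The count called over all genes, 1 with all libraries, ran from 0 to 94 on leaving out single libraries (94 without PFOA 2, 52 without DMSO 3). It was 0 with no filter on low values, no variance trend, the replicate block, the longest-transcript trend removed (with and without the block), the term for DMSO 1 and 2, and without PFOA 1 with that trend removed. It was 2 with library weights or with the GC trend removed.

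At an unadjusted p under 0.05, 7 members were higher (10.3%, against 8.56% of all genes) and 18 lower (26.5%, against 12.5%). These counts were 14 (20.6%, against 11.5%) and 11 (16.2%, against 9.38%) with quantile normalization. With the term for DMSO 1 and 2 they were 3 (4.41%, against 2.32%) and 8 (11.8%, against 4.57%). Without PFOA 1 with the length trend removed they were 4 (5.88%, against 4.56%) and 9 (13.2%, against 5.46%). Leaving out single libraries gave 4 to 8 higher and 13 to 18 lower. The shares of all genes then ran from 4.77% to 8.36% higher and from 8.28% to 13.5% lower. The median log2 fold change of the members, -0.0165 with all libraries, was 0.0462 with quantile normalization, -0.00325 with the median-length trend removed, and -0.029 to -0.00817 on leaving out libraries.

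The labels do not say whether replicate numbers pair the libraries. Deviations from the group means correlated at -0.107, -0.00954 and -0.138 between libraries of the same number. Between libraries of different numbers they correlated at -0.0650 to 0.148. With 3 libraries per group the deviations of a gene sum to 0, so these values cannot decide on pairing. With the replicate block 0 genes were called, and the median was -0.0165. At that p 7 members were higher (10.3%, against 5.91% of all genes) and 16 lower (23.5%, against 10.7%).

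Of the 53 named genes these changed sign, and none of them was called. With quantile normalization the values were 0.0792 for Hnrnpab, 0.105 for Hnrnpf, 0.0335 for Snrpa, 0.0429 for Snrpa1 and 0.0797 for U2af2. With median centring Snrpa1 was 0.000387, and with library weights U2af2 was 0.0104. With the longest-transcript trend removed, with or without the block, Hnrnpf was 0.00306, Snrpa 0.0603, Snrpa1 0.112, U2af1 0.0503, U2af2 0.04001 and Celf1 -0.0103. With the median-length trend removed they were 0.0112 for Hnrnpf, 0.0137 for Snrpa, 0.0599 for Snrpa1, 0.00848 for U2af2 and -0.0186 for Celf1. With the term for DMSO 1 and 2, Hnrnpa1 was -0.0375, Snrpa 0.0670, Snrpa1 0.0667 and Sf3a2 0.0886. With the GC trend removed, Hnrnpa1 was -0.00486 and U2af2 0.0271. Without PFOA 1 with the length trend removed, Hnrnpf was 0.0202, Snrpa 0.0625, Snrpa1 0.0836, Snrpg 0.110, U2af1 0.0566 and U2af2 0.0660. On leaving out single libraries Hnrnpa1 ran from -0.0189 to 0.0386, Snrpa from -0.107 to 0.000535, Snrpa1 from -0.0399 to 0.0181, Snrpg from -0.252 to 0.0201 and U2af2 from -0.0464 to 0.0325. The causes were not tested.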
